A study of Nicotiana tabacum with 6 samples.

Results

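CDKB1, CDKB2, CycB2 and PCNA are genes of cell division and DNA replication, and their transcripts were followed here in tobacco leaves that lack a plastid photosystem gene. The array annotation of 2007 gives each of these symbols to 1 probe set, so the members were 4 of 10101 tested probe sets, of which 909 carried a gene symbol and 702 a symbol other than a LOC number. They are CDKB1 (gene ID 543768), CDKB2 (543769), CycB2 (543747) and PCNA (544248), all tomato gene IDs. The members were chosen by measured values of these same arrays, seen in earlier results, namely low CDKB1, CDKB2 and CycB2 with the psaA deletion and high PCNA with the psbA deletion. Every difference between genotypes given for them is therefore a description and carries no test.

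In plants, the B-type cyclin-dependent kinases CDKB1 and CDKB2 are kinases of the period from late replication to mitosis, a class that animals and yeast lack, and B-type cyclins such as CycB2 are the partners that activate kinases at entry into mitosis. PCNA is the ring-shaped clamp that holds DNA polymerase on its template, and it serves replication and DNA repair. Transcripts of mitotic genes accumulate shortly before a cell divides, whereas PCNA transcripts accumulate when DNA is copied. In leaves, division is a feature of young tissue and ceases as cells expand.

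The 6 arrays were made from leaves of Nicotiana tabacum (Petit Havanna in the labels), 2 from the wild type (labelled normal), 2 from a psaA deletion mutant and 2 from a psbA deletion mutant. The plastid genes psaA and psbA encode reaction-centre proteins of photosystem I and photosystem II. All plants are described as grown in culture bottles in dim light, 16 h light and 8 h dark, on medium with 500 mg/L spectinomycin, and leaves were harvested 2 to 3 weeks after subculture. The same growth text stands under the wild type, and whether those plants were in fact on the drug is not settled by the labels, so a drug effect and a deletion effect cannot be told apart. The labels speak of biological replicates and do not say how many plants or lines stood behind a group, nor which leaf or leaf age was taken, so the p-values measure the spread between these arrays.

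Tobacco RNA was read with probes designed on tomato sequence. No member gene ID occurs in the tobacco RefSeq gene table (0 of 4), but that table names 2 tobacco genes PCNA and 2 CDKB1, and which of them a probe set reads was not determined. The deposited log2 values are centred, so that each probe set has a median of 0 over the 6 arrays. They give differences between arrays and no level, so neither the brightness of a probe set nor the order of the 4 genes by abundance can be read from them, and the leaf label could not be checked by the presence of leaf markers.

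CDKB1 was low in both psaA deletion arrays. Its log2 values were 0.11 and 0.22 in the wild type, -0.46 and -0.46 in the psaA mutant and -0.08 and 0.08 in the psbA mutant. The groups did not overlap, and they stood in the order wild type, psbA deletion, psaA deletion. The psaA mutant was 1.54-fold below the wild type (log2 difference -0.63, SE 0.111, n = 2 per group) and the psbA mutant 1.12-fold below it (-0.17, SE 0.111). The gap between the replicates of a group was at most 0.156, about the size of the psbA difference and well under the psaA one.

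CDKB2 stood in the same order and had the largest psaA difference of the members. The wild-type arrays gave 0.46 and 0.30, the psaA arrays -0.24 and -0.85, and the psbA arrays 0.03 and -0.03. No groups overlapped, but the psaA replicates lay 0.61 apart, so the depth of the psaA value rests largely on the second array. The psaA mutant was 1.89-fold below the wild type (log2 difference -0.92, SE 0.184, n = 2 per group), and 1.92% of all tested probe sets had a more negative difference. The psbA mutant was 1.30-fold below the wild type (-0.38, SE 0.184). Without the second psaA array the psaA difference was -0.62, and without the first it was -1.23.

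CycB2, the mitotic cyclin, was low in both mutants. Its values were 0.35 and 0.79 in the wild type, -0.15 and -0.27 with the psaA deletion, and 0.15 and -0.26 with the psbA deletion. All 4 mutant arrays lay below both wild-type arrays, and the mutants overlapped each other. The difference from the wild type was -0.78 with the psaA deletion and -0.63 with the psbA deletion (both SE 0.182, n = 2 per group), which is 1.72-fold and 1.54-fold. The replicates were wide apart here, by 0.448 in the wild type and 0.408 in the psbA mutant.

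PCNA, the replication clamp, followed another order: psbA deletion, wild type, psaA deletion. The wild-type arrays gave -0.02 and 0.02, the psaA arrays -0.28 and -0.24, and the psbA arrays 0.64 and 0.50. Replicates lay within 0.141 of each other and no groups overlapped. PCNA was 1.49-fold above the wild type in the psbA mutant (log2 difference 0.57, SE 0.107, n = 2 per group) and 1.20-fold below it in the psaA mutant (-0.26, SE 0.107). The mutants lay on opposite sides of the wild type, with the psbA mutant 1.78-fold above the psaA mutant (0.83, SE 0.107). In 96.7% of all tested probe sets the psbA difference from the wild type was below that of PCNA.

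**Figure D1:**
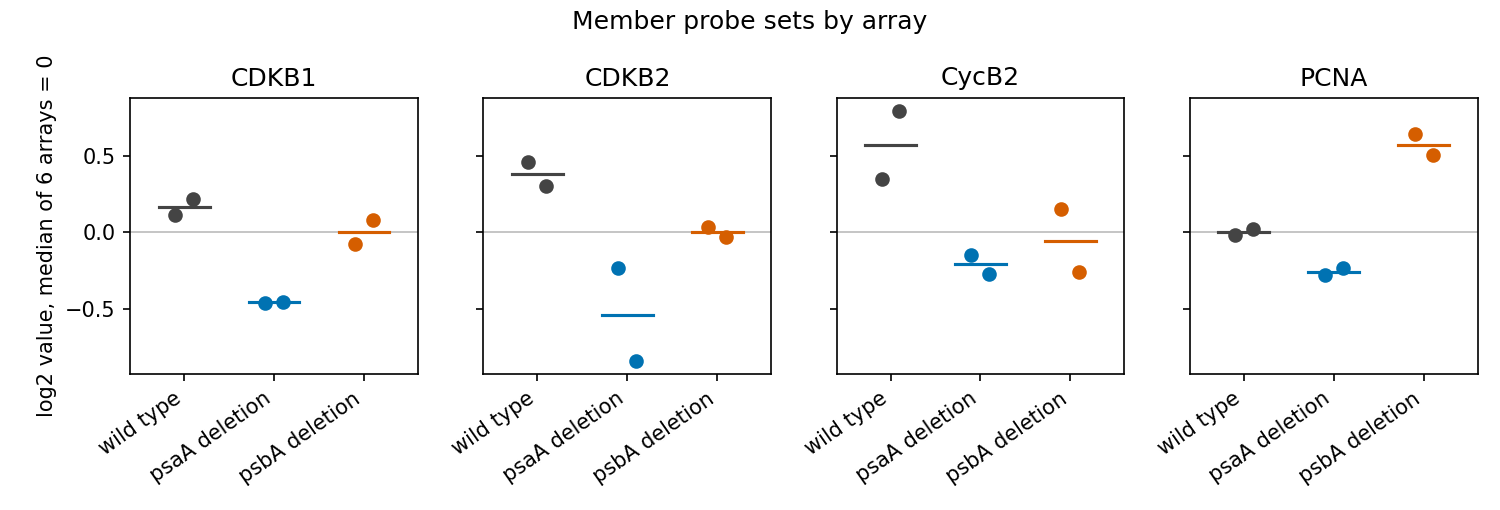
Log2 values (vertical axis, each probe set's median over the 6 arrays set to 0) of CDKB1, CDKB2, CycB2 and PCNA, with a point for each array and a line at the mean of each group of 2. By group mean, the 3 mitotic genes are highest in the wild type and lowest in the psaA deletion, while PCNA is highest in the psbA deletion, at 0.64 and 0.50.

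Counted against the array as a whole, 4 of the 4 members had both psaA arrays below both wild-type arrays, a state that 24.9% of all tested probe sets shared. In the psbA comparison, the 3 mitotic genes lay below the wild type without overlap (24.3% of all probe sets) and PCNA above it (28.5%). The limma fit across all probe sets called 3 members lower with the psaA deletion, against 6.06% of probe sets called lower, and 1 member, PCNA, higher with the psbA deletion, against 5.41% called higher. These counts restate how the members were picked. They also rested on few arrays: the 3 psaA calls were 1 without the first psaA array, 0 without the second, 2 without the first wild-type array and 0 without the second, a group reduced to 1 array being taken to vary like the others. The PCNA call against the wild type was not made without the first psbA array or without either wild-type array, with differences of 0.50, 0.55 and 0.59.

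Between the mutants, the psbA arrays lay above the psaA arrays without overlap for CDKB1, CDKB2 and PCNA, 3 of the 4 members, as for 26.6% of all tested probe sets. The psbA minus psaA difference was 0.46 for CDKB1 (SE 0.111, n = 2 per group), 0.54 for CDKB2 (SE 0.184) and 0.15 for CycB2 (SE 0.182). PCNA was the 1 member called in this comparison, as higher with the psbA deletion, against 1.78% of all probe sets, and that call was not made without the first psaA array (difference 0.81). PCNA was picked for its direction in these arrays, so nothing is read from that call. This comparison uses the same arrays as the comparisons with the wild type. As in any bulk leaf sample, fewer dividing cells and less transcript per dividing cell cannot be told apart.

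Set against PCNA within each array, the mitotic genes separated all 3 genotypes. The mean of CDKB1, CDKB2 and CycB2 minus PCNA was 0.33 and 0.42 in the wild-type arrays, 0.0018 and -0.29 in the psaA arrays, and -0.61 and -0.57 in the psbA arrays, on the log2 scale. The groups did not overlap, and the psaA replicates were the widest apart. As the genes were picked by their direction in these same arrays, this separation partly restates the choice and is a description. How often other combinations of genes separate the genotypes in this way was not tested. Relative to the wild type, mitotic minus PCNA was lower by a log2 difference of -0.52 in the psaA mutant and -0.96 in the psbA mutant, and psbA minus psaA was -0.45 (all SE 0.125 from a linear model on these 6 values, n = 2 per group). Because probe sets were centred one by one, a value of 0 does not mean equal transcript amounts, and only the differences between genotypes can be read.

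On the deposited scale the 2 mutants divided this difference unequally between its parts. In the psaA mutant the mitotic mean was lower than in the wild type by -0.78 (SE 0.121) and PCNA by -0.26, so both parts went down and the mitotic part further. In the psbA mutant the mitotic mean differed by -0.39 (SE 0.121) and PCNA by 0.57, so the larger part came from PCNA. Any factor that shifts a whole array cancels in mitotic minus PCNA but moves both of its parts. With the arrays scaled on their poly-A controls, the mitotic mean and PCNA differed by -0.88 and 0.086 in the psbA mutant, so the larger part then came from the mitotic mean.

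**Figure D2:**
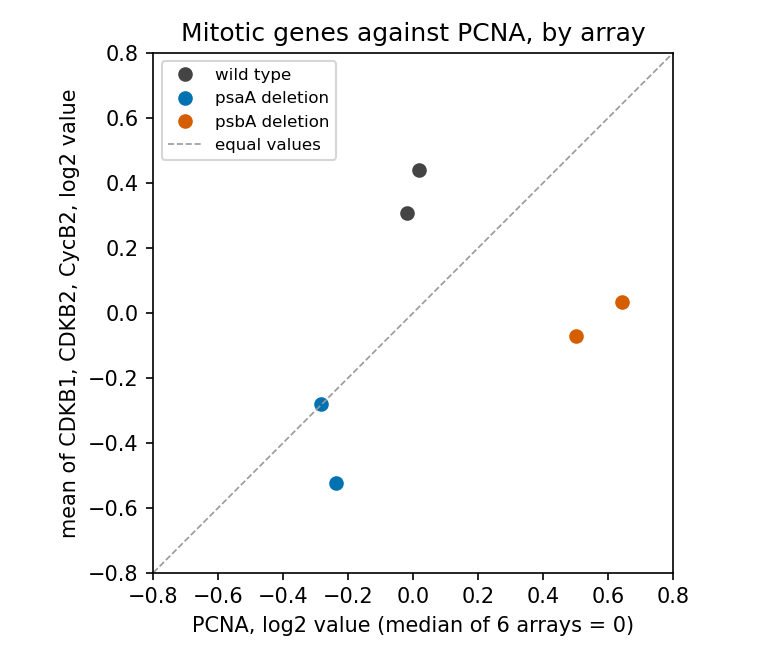
Mean log2 value of CDKB1, CDKB2 and CycB2 (vertical axis) against the log2 value of PCNA (horizontal axis), with a point for each of the 6 arrays and a dashed line of equal values. Wild-type arrays lie above the line by 0.33 and 0.42, psbA deletion arrays below it by log2 values of -0.61 and -0.57, and the psaA arrays at 0.0018 and -0.29.

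How far each value against the wild type holds depends on how the arrays are scaled. The probe sets for poly-A control RNAs, which Affymetrix supplies for addition to a sample, had array medians from -0.33 to 0.32 in the deposited values. Whether those RNAs were added here is not given in the sources used. Setting their medians equal moved the median of all tested probe sets to -0.23 for psaA minus wild type, -0.47 for psbA minus wild type and -0.22 for psbA minus psaA. With that scaling PCNA was 0.086 above the wild type in the psbA mutant in place of 0.57, and the CycB2 difference between the mutants turned from 0.15 to -0.086. The mitotic genes then lay further below the wild type in both mutants, by log2 differences of -0.87 (CDKB1), -1.17 (CDKB2) and -1.03 (CycB2) with the psaA deletion and -0.65, -0.87 and -1.11 with the psbA deletion. Relative to the typical probe set, as deposited, PCNA was high in the psbA mutant; relative to those control probe sets it was close to the wild type.

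**Figure D3:**
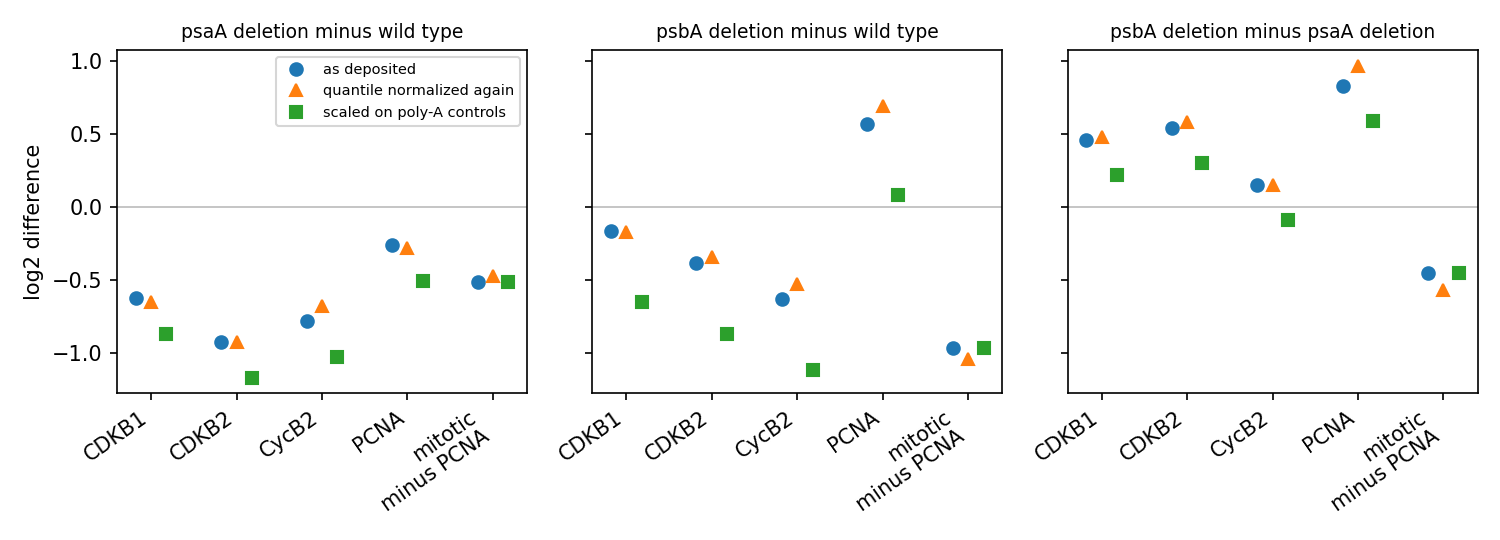
Log2 differences (vertical axis) of the 4 members and of mitotic minus PCNA in the 3 comparisons, as deposited (circles), after a further quantile normalization (triangles) and after scaling on the poly-A controls (squares). Scaling on the poly-A controls moves each gene downward, PCNA in the psbA comparison from 0.57 to 0.086, and leaves mitotic minus PCNA at -0.52, -0.96 and -0.45.

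A sign of RNA quality also differed between the groups. The 3' minus 5' difference of the control probe sets, which grows as RNA is degraded or less completely copied, exceeded that of the wild type in the psaA arrays by 0.27 for actin, 0.28 for gapdh, 0.31 for ef1a and 0.30 for ubiquitin, and was lower for GlutTrans (-0.12) and PhyB2 (-0.13). In the psbA mutant it was -0.13, -0.08, -0.09, 0.32, 0.02 and -0.03 for the same genes. The part of this in the member values was not tested.

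On the deposited scale the other cell cycle genes that were matched by symbol did not pass in any of the comparisons, and no replication gene was among them. The list held 9 further genes, 1 probe set each: the A-type kinases CDKA1 and cdc2A-2, the A-type cyclins CycA1, CycA2 and CycA3, the D-type cyclin CYCD3, the kinase gene CDKC, and the kinase inhibitors krp1 and krp2. Of these, 0 of 9 were called with the psaA deletion, 0 of 9 with the psbA deletion and 0 of 9 between the mutants by limma, against 10.7%, 11.2% and 3.98% of all tested probe sets, and 2, 1 and 1 had an unadjusted p under 0.05. The median difference of the 9 was -0.04, 0.06 and 0.16 in these comparisons, beside 0.02 in each over all probe sets. With poly-A scaling, limma called 2 of the 9 lower with the psaA deletion (CycA2 and CYCD3). It called 5 of the 9 lower with the psbA deletion (CycA2, CDKC, CYCD3, cdc2A-2 and CDKA1). Over all 10101 probe sets, that scaling gave 1623 calls with the psaA deletion and 6615 with the psbA deletion. Only 7.95% and 1.27% of those calls were higher, so the counts of the 9 are not particular to cell cycle genes.

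The inhibitor krp1, whose protein family binds and blocks cyclin-dependent kinases, came closest to a call. Its log2 values were -0.45 and -0.22 in the wild type, -0.03 and 0.13 in the psaA mutant and 0.35 and 0.03 in the psbA mutant. All 4 mutant arrays lay above both wild-type arrays. Of all tested probe sets, 28.5% had both psbA arrays above both wild-type arrays. The share with all 4 mutant arrays above both wild-type arrays was not counted. The psbA mutant differed from the wild type by 0.53 (SE 0.145, limma adjusted p = 0.0538) and the psaA mutant by 0.38 (SE 0.145, limma adjusted p = 0.148). With scaling on the poly-A controls the psbA difference of krp1 was 0.04 and its psaA difference 0.14. The related inhibitor krp2 gave 0.27 (limma adjusted p = 0.29) in the psbA and 0.11 in the psaA mutant.

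CYCD3, a cyclin of the entry into the cycle, gave 0.001 and 0.13 in the wild type, -0.17 and -0.25 in the psaA mutant and 0.09 and -0.001 in the psbA mutant. The psaA arrays were the lowest of the 6, and the wild-type and psbA arrays overlapped. The psaA difference was -0.28 (SE 0.110, limma adjusted p = 0.165) and psbA minus psaA was 0.26 (SE 0.110, limma adjusted p = 0.27).

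Among the A-type cyclins, which act from replication to mitosis, CycA2 gave -0.34 (SE 0.191, limma adjusted p = 0.331) with the psaA deletion, and its psaA replicates lay at -0.49 and 0.03. CycA1 differed by -0.04 and CycA3 by 0.13 in the psaA mutant, and by 0.17 and 0.06 in the psbA mutant. Between the mutants CycA1 gave 0.20 (limma adjusted p = 0.591). With 1 array left out at a time, CycA1 in the psbA mutant ran from -0.09 to 0.42 and CycA3 from -0.29 to 0.40, so neither kept its sign. CDKA1, the kinase that works throughout the cycle, gave -0.20 with the psaA deletion, 0.02 with the psbA deletion and 0.22 between the mutants (limma adjusted p = 0.414 for the last). CDKC, whose relatives in Arabidopsis act in transcription rather than in division, gave -0.24 with the psbA deletion (limma adjusted p = 0.432), which was -0.45 without the first wild-type array and -0.02 without the second. SEs of these differences ran from 0.125 to 0.235.

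**Figure D4:**
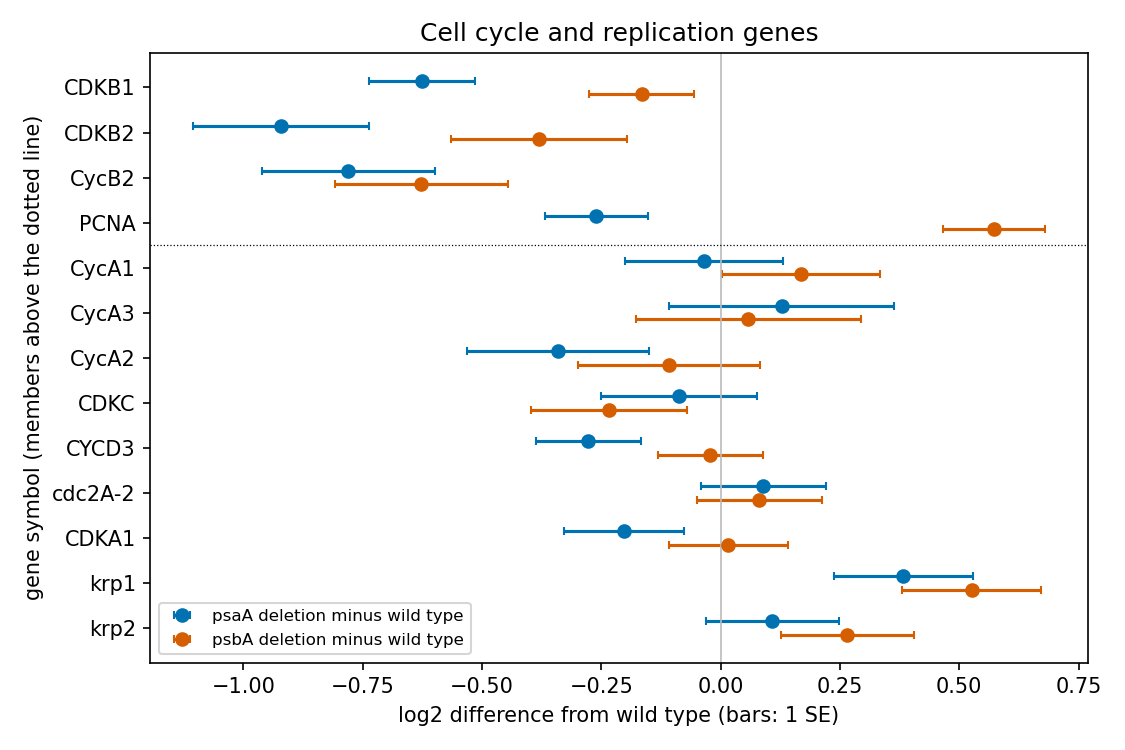
Log2 differences from the wild type (horizontal axis, bars of 1 SE) of the 4 members, above the dotted line, and of the 9 other cell cycle genes, for the psaA deletion (blue) and the psbA deletion (orange). The 3 mitotic genes lie left of 0 in both mutants, PCNA lies at -0.26 and 0.57, and the other genes lie between -0.34 and 0.53.

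The histone and cytoskeleton lists were short. The 2 probe sets of H1, a linker histone symbol and the 1 histone gene matched, gave -0.09 and 0.10 with the psaA deletion and -0.14 and 0.19 with the psbA deletion, and 0 of 2 were called in any comparison (unadjusted p under 0.05 in 0). Of the 2 cytoskeleton genes, the actin gene ACT rose in both mutants, by 0.44 with the psaA deletion (SE 0.110, limma adjusted p = 0.0401) and by 0.54 with the psbA deletion (SE 0.110, limma adjusted p = 0.0166). The ACT call in the psaA mutant was not made when any 1 of the psaA or wild-type arrays was left out (limma adjusted p up to 0.192), and in the psbA mutant it was not made without the second psbA array or either wild-type array (up to 0.11). The tubulin gene TUB gave 0.30 (limma adjusted p = 0.15) and 0.09. On the poly-A scale ACT stood at 0.19 and 0.05.

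Markers of tissue that could hold more or fewer dividing cells were set beside these values. Of 4 shoot meristem genes (TKN3, WUS, LS and SP), 0 were called in any of the 3 comparisons, with 1, 0 and 1 at an unadjusted p under 0.05 in limma. Their differences ran from -0.30 to -0.0039 with the psaA deletion and from -0.04 to 0.08 with the psbA deletion, the lowest being WUS, the stem-cell regulator, with the psaA deletion and LS with the psbA deletion. WUS arrays gave 0.02 and 0.03 in the wild type, -0.29 and -0.26 in the psaA mutant and -0.02 and 0.19 in the psbA mutant. The psaA arrays of WUS were thus lowest (limma adjusted p = 0.143 against the wild type). Of all tested probe sets, 24.9% had both psaA arrays below both wild-type arrays. The other meristem genes gave -0.0039 (TKN3), -0.006 (LS) and -0.08 (SP) with the psaA deletion, and their psaA and wild-type arrays overlapped. In 24 probe sets of wall-loosening genes of expanding tissue, differences ran from -0.65 to 0.53 (psaA deletion) and from -0.44 to 0.23 (psbA deletion). Limma called the expansin genes exp9 (-0.65) and exp11 (-0.44) lower with the psaA deletion and exp9 (-0.44) lower with the psbA deletion. These calls were 2 of 24 with the psaA deletion and 1 of 24 with the psbA deletion, against 10.7% and 11.2% of all probe sets, and the list's median was -0.06 in both comparisons. The exp11 call ended without any 1 of the psaA or wild-type arrays (limma adjusted p up to 0.221) and the exp9 call in the psbA mutant without any 1 of the 6 arrays (up to 0.156).

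The mature leaf list held 8 genes, all of photosynthesis: CAB4, CAB5, CAB6A, PSBO, PSBP, PsbQ, PSBR and PETE. With this list, a difference in leaf tissue and one in photosynthesis genes alone cannot be told apart. Of these 8, limma called 7 lower with the psaA deletion and 6 lower with the psbA deletion. Over all probe sets, 10.7% and 11.2% were called in either direction. The list's medians were -0.89 and -0.67 and its highest differences -0.33 and -0.09, so every gene lay below the wild type in both mutants. The psbA count was smaller when either wild-type array or either psbA array was left out. The psaA count was smaller without the second psaA array or the second wild-type array. Of 8 root genes, limma called 0 with the psaA deletion, and 1 higher and 1 lower with the psbA deletion, against the same shares. Between the mutants 1 root gene was called, as lower with the psbA deletion, against 3.98% of all probe sets called in either direction. As centring removes levels, no summed level of a marker list can be given, and the part of tissue makeup in the member values was not tested.

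The members' profiles over the 6 arrays were compared by the root mean square of their log2 differences, which is 0 for identical profiles. CDKB1 and CDKB2 were the closest pair (0.242), followed by CDKB2 and CycB2 (0.33) and CDKB1 and CycB2 (0.338). PCNA stood 0.374 from CDKB1, 0.472 from CDKB2 and 0.513 from CycB2. Each mitotic gene was thus nearer to the other mitotic genes than to PCNA, as their selection by direction implies.

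Among 698 other probe sets with a gene symbol other than a LOC number, the profile nearest to the mitotic mean was that of CAB6A, a photosystem I antenna gene, at 0.087. It was followed by the phytoene desaturase gene PDS (0.121), the phytoene synthase gene Psy1 (0.138), MET1 (0.138) and PDF1B (0.139). In these 5, the psaA difference from the wild type ran from -0.70 (MET1) to -0.50 (PDF1B) and the psbA difference from -0.41 (PDS) to -0.25 (MET1). CAB6A gave 0.19 and 0.44 in the wild type, -0.33 and -0.43 in the psaA mutant and -0.05 and 0.05 in the psbA mutant. Its arrays stood in the same order of genotypes as the mitotic mean, without overlap, as its choice by nearness favours. For CycB2 alone the mutants overlapped. For scale, the mitotic mean was 0.329 from a flat profile, and CDKB1, CDKB2 and CycB2 stood 0.162, 0.157 and 0.208 from their own mean.

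The profiles nearest to PCNA were those of the 2 probe sets of CRY1A, a blue-light receptor gene, at 0.101 and 0.129. AREB1, a gene of a transcription factor of the abscisic acid response, came next (0.152), then fsm1 (0.166) and the plasma membrane proton pump gene LHA1 (0.187). CRY1A, at its nearer probe set, gave 0.02 and -0.02 in the wild type, -0.17 and -0.05 in the psaA mutant and 0.73 and 0.55 in the psbA mutant. Both psbA arrays stood above the other 4, as for PCNA, and its difference from the wild type was 0.64 in the psbA mutant and -0.11 in the psaA mutant. These likenesses over 6 arrays in 3 groups are a description.

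**Figure D5:**
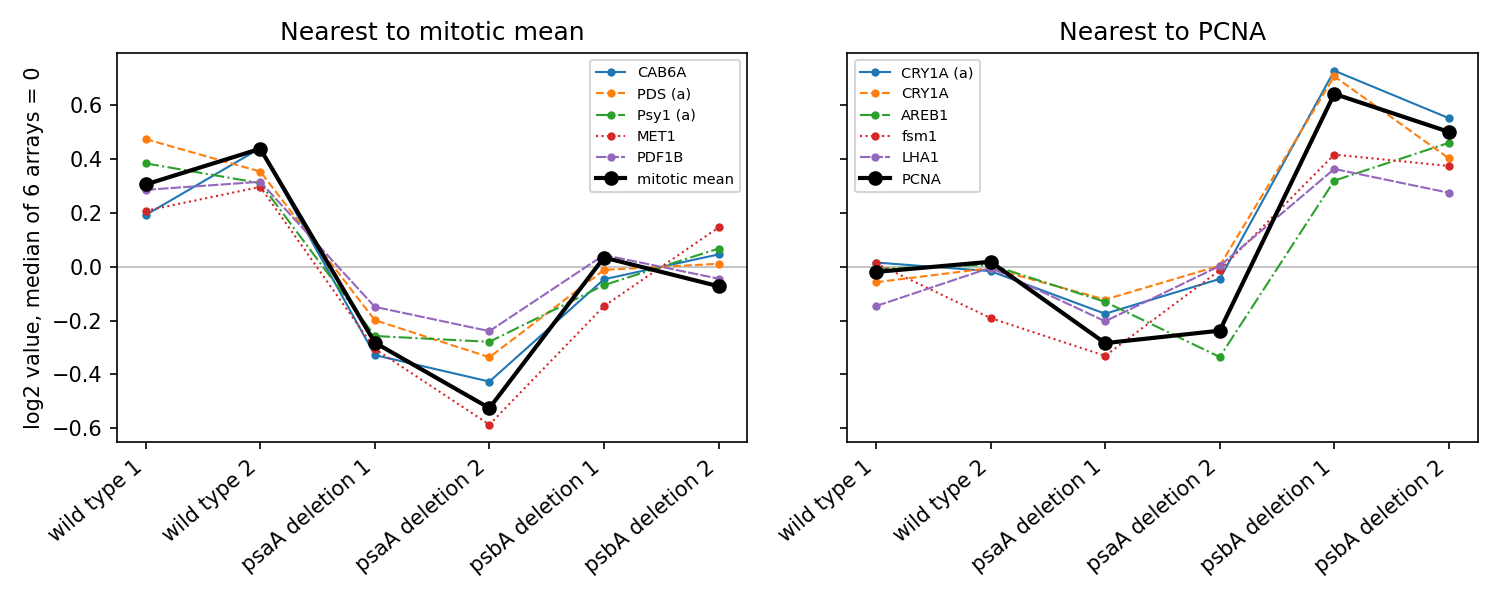
Log2 values (vertical axis) on the 6 arrays of the 5 probe sets nearest to the mean of the mitotic genes (left) and of the 5 nearest to PCNA (right), with the target profile in black; (a) marks probe sets whose ID ends in a_at, and lines only join the arrays of a probe set. CAB6A is nearest to the mitotic mean and CRY1A nearest to PCNA, with psbA values of 0.73 and 0.55.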

How the data were processed

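The deposited table holds log2 values of 10209 probe sets on 6 Affymetrix tomato arrays, 1 column per array. RMA and GCRMA are named, per the submitters' processing notes, with no version; which of them made the values is not given in the sources used here, nor is the base of the logarithm, taken as 2. The deposited log2 values had a median of 0 for every probe set (within 5e-07). The 108 control probe sets were left out. A linear model with 3 groups was fitted to 10101 probe sets with limma 3.58.1 (lmFit, eBayes; R 4.3.3; 3 residual and 5.39 prior degrees of freedom), and two-sided p-values were adjusted by Benjamini-Hochberg over all of them; an adjusted p under 0.05 is a call. Steps were tested on simulated data. The median SE was 0.125, and the number of arrays limits the precision. Replicate differences had an SD over probe sets from 0.206 to 0.229.

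Members and gene lists were chosen with earlier results of these data known. Lists are symbol patterns. Genes named are the called ones and, in each comparison, the 3 with the smallest p of the cell cycle, histone and cytoskeleton lists. The 5 nearest profiles to each target are also named. CycA3, WUS, exp9 and exp11 were named in addition after their values were seen. Alternatives were a replicate block, each array left out, only the compared groups, quantile normalization, poly-A scaling (36 probe sets), robust eBayes and no multi-transcript probe sets. Replicate numbers did not pair arrays: deviations correlated at 0.021, -0.0049 and -0.0086 between groups. Plots used matplotlib 3.10.9.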

Additional observations from a re-analysis of the deposited data

Results flagged for a closer look

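PCNA lay on opposite sides of the wild type in the mutants: both psaA arrays were below it and both psbA arrays above it, with a psbA minus psaA difference of 0.83. The fit across all probe sets called this difference, but PCNA was picked with its direction known, so it is a description and was not tested independently of that choice. With poly-A scaling PCNA was 0.086 from the wild type in the psbA mutant. XTH3, a wall-modifying gene of the expanding tissue list, differed between the mutants (psbA minus psaA -0.68, limma adjusted p = 0.0444), with log2 differences from the wild type of 0.53 in the psaA mutant and -0.15 in the psbA mutant. PT1, a phosphate transporter gene of the root list, differed likewise (-0.61, limma adjusted p = 0.0493), at 0.38 and -0.23 from the wild type. Without the second psaA array, either psbA array or either wild-type array the XTH3 difference was not called (limma adjusted p up to 0.192), nor was that of PT1 without any 1 of the 6 arrays (up to 0.246).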

How the results depend on the processing

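With each array left out in turn, the psaA minus wild type difference ran from -0.68 to -0.57 (CDKB1), -1.23 to -0.62 (CDKB2), -1.005 to -0.56 (CycB2) and -0.28 to -0.24 (PCNA). For psbA minus wild type it ran from -0.24 to -0.088, -0.46 to -0.30, -0.85 to -0.40 and 0.50 to 0.64 for the same genes. Between the mutants it ran from 0.38 to 0.54, 0.24 to 0.85, -0.051 to 0.36 and 0.76 to 0.90, CycB2 turning negative without the first psbA array. Mitotic minus PCNA kept its direction, from -0.66 to -0.37, -1.01 to -0.92 and -0.59 to -0.30. Calls over all probe sets ran from 494 to 994, 509 to 842 and 115 to 266, members called from 0 to 3, 0 to 1 and 0 to 1, and other cell cycle genes stayed at 0.

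With poly-A scaling CDKB1 and PCNA were -0.87 and -0.51 in the psaA comparison, CDKB1, CDKB2, CycB2 and PCNA -0.65, -0.87, -1.11 and 0.086 in the psbA comparison, and CDKB1, CycB2 and PCNA 0.22, -0.086 and 0.59 between the mutants. Members called higher in the psbA mutant were then 0, and 4 members were called lower in the psaA comparison (3 as deposited) and 3, CDKB1, CDKB2 and CycB2, in the psbA comparison (0 as deposited). Calls over all probe sets were 1623, 6615 and 902, of which 7.95%, 1.27% and 6.76% were higher, against 43.5%, 48.4% and 44.8% of 1083, 1128 and 402 as deposited. Other cell cycle genes called became 2 and 5 against the wild type, and cdc2A-2 (-0.41), CDKA1 (-0.47) and TUB (-0.39) turned to lower in the psbA mutant; the shift of the whole array shows in the medians given above. Quantile normalization gave PCNA 0.69 in the psbA mutant and 0.97 between the mutants, where 2 members were then called higher. Between the mutants it gave 524 calls over all 10101 probe sets, of which 43.3% were higher. Only the 2 groups compared gave 266 calls between the mutants; fewer arrays entered that fit.

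The replicate block, with numbers that pair nothing, gave 916, 965 and 301 calls and ended the CycB2 call in the psaA mutant; the cause was not tested. Robust eBayes and leaving out multi-transcript probe sets changed no member call. Depth cannot be judged, since centring removed the signal over background.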
